A study of Homo sapiens with 14 samples.

Results

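DLST and 7 further genes of the 2-oxoacid dehydrogenase family were followed through the splice events of HEK293T cells with WT or mutated SF3B1. The members were the events listed under the symbols DLST, OGDH, DLD, DLAT, PDHX, PDHA1, PDHB and DBT, of any type, whose junction reads averaged at least 10 over the WT and MT group means. Of 92 events listed for the 8 genes, 89 met that minimum, out of 94061 such events of 10404 genes and 114349 events listed in all. DLST was chosen because its splicing differed between the genotypes in these libraries, and the study also picked it for qPCR for the extent of its splicing change. Its values are therefore given as a description. Its events enter the fit over all events of the table, and nothing is read from a call there. The other 7 genes were chosen by their function.

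2-oxoacid dehydrogenase complexes are mitochondrial machines that remove carbon dioxide from a 2-oxoacid and pass the remaining acyl group to coenzyme A. An E1 subunit decarboxylates the substrate with thiamine pyrophosphate, an E2 subunit carries the acyl group on lipoic acid, and the E3 subunit reoxidizes the lipoic acid. DLST is the E2 of the 2-oxoglutarate dehydrogenase complex of the citric acid cycle, and OGDH is its E1. PDHA1 and PDHB form the E1 of pyruvate dehydrogenase, DLAT is its E2, and PDHX anchors E3 to it. DBT is the E2 of the branched-chain complex, and DLD is the E3 that all these complexes share. SF3B1 is a core part of the U2 small nuclear ribonucleoprotein, which binds the branch point of an intron, and cells with the K700E change are known for using 3′ splice sites a short way upstream of the usual ones.

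The RNA-Seq compared HEK293T, a human embryonic kidney line, carrying SF3B1 K700K (WT, 3 libraries) with an isogenic line carrying SF3B1 K700E at its own locus (MT, 3 libraries). The DRIP-seq, an immunoprecipitation of DNA:RNA hybrids with the S9.6 antibody, used Nalm-6, a human leukemic B cell line, with SF3B1 K700K or K700E and with DNA left untreated or digested with RNase H (RNH1), at 2 libraries for each of the 4 groups. Whether each genotype was 1 clone is not given in the sources used here, and nothing in the labels says that the libraries came from separate cultures, so the spread between them may be technical. The splice table lists 6 MT values for each event but gives only 3 of them as columns, and these 3 stand here for the MT libraries as MT columns 1, 2 and 3. They are not tied to replicate numbers. Libraries held 3983946 to 5336590 listed junction reads in the 79340 events whose count lists could be read in full. Across 83581 events, pairs of libraries differed by a mean of 0.0416 to 0.0524 in inclusion level, and each MT column was nearer to a WT library than to either of the other MT columns. The table holds no gene levels. Of 6 HEK293T marker genes 2 had an event with at least 10 reads (KRT8 and KRT18), against 0 of 5 erythroleukemia markers and 0 of 6 B cell markers.

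The site that carried the largest difference in DLST is shown with 30 bases of intron before it and 20 bases of exon after it, beside a PDHA1 site of nearly equal spacing, so that they can be compared base by base. Capitals mark the bases that are added to the exon when the upstream 3′ splice site is used. Both genes lie on the plus strand, and the sequences are those of the GRCh38 reference, chr14:74889848-74889916 for DLST and chrX:19351230-19351300 for PDHA1.
DLST: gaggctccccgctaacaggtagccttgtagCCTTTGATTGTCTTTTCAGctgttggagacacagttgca
PDHA1: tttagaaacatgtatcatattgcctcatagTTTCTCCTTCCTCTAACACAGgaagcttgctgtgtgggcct

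In DLST the upstream site adds 19 bases (chr14:74889878-74889896) in front of exon 6 of the canonical transcript, and in PDHA1 the upstream site adds 21 bases (chrX:19351260-19351280) in front of exon 4. Each added stretch ends in AG, and neither holds a further AG between the sites. Pyrimidines make up 73.7% of the added bases in DLST and 76.2% in PDHA1. In the 30 bases before the upstream site they make up 50.0% in DLST and 53.3% in PDHA1, with 6 and 10 adenines. Of 346 alternative 3′ splice site events with sites 10 to 30 bases apart and at least 100 reads, 67 (19.4%) had fewer pyrimidines in those 30 bases than DLST, and the median was 56.7%.

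DLST used the upstream site at levels under 0.07 in WT cells and of at least 0.293 in every MT column. The inclusion level, which is the share of the longer form after the junction reads of each form are divided by its length, was 0.047, 0.069 and 0.059 in the WT libraries. It was 0.293, 0.455 and 0.365 in the MT columns. The lowest MT column was above the highest WT library by more than the whole WT range. The mean rose from 0.0583 ± 0.0110 (SD, n = 3) to 0.371 ± 0.0812 (SD, n = 3), a difference of 0.313. Behind these levels stood 15, 22 and 15 junction reads of the upstream site in WT, against 255, 250 and 200 reads of the downstream site. In the MT columns 52, 118 and 130 reads used the upstream site and 105, 118 and 189 the downstream site. MT column 2 thus held as many reads of the upstream as of the downstream site.

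The added 19 bases do not divide by 3. Read from the annotated start codon of the canonical DLST transcript, which has 453 codons before its stop in exon 15, the longer form meets a TGA stop after 106 codons, in exon 6 of 15, with 925 bases of spliced transcript between that stop and the last exon junction. Of the 16 annotated DLST transcripts, 1 uses the upstream site and is annotated in the nonsense-mediated decay class. The 7 that use the downstream site include transcripts of that class too, beside protein-coding ones. The protein itself was not measured.

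The study's primers for this event cross the junction between exon 5 and exon 6 and show how the forms part. In them, lower case marks the 10 bases of exon 5 that both share, and capitals the bases after the junction, 11 of the usual exon 6 in the WT primer and 12 of the added stretch in the MT primer.
WT isoform primer: tgggagaaagCTGTTGGAGAC
MT isoform primer: tgggagaaagCCTTTGATTGTC

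**Figure D1:**
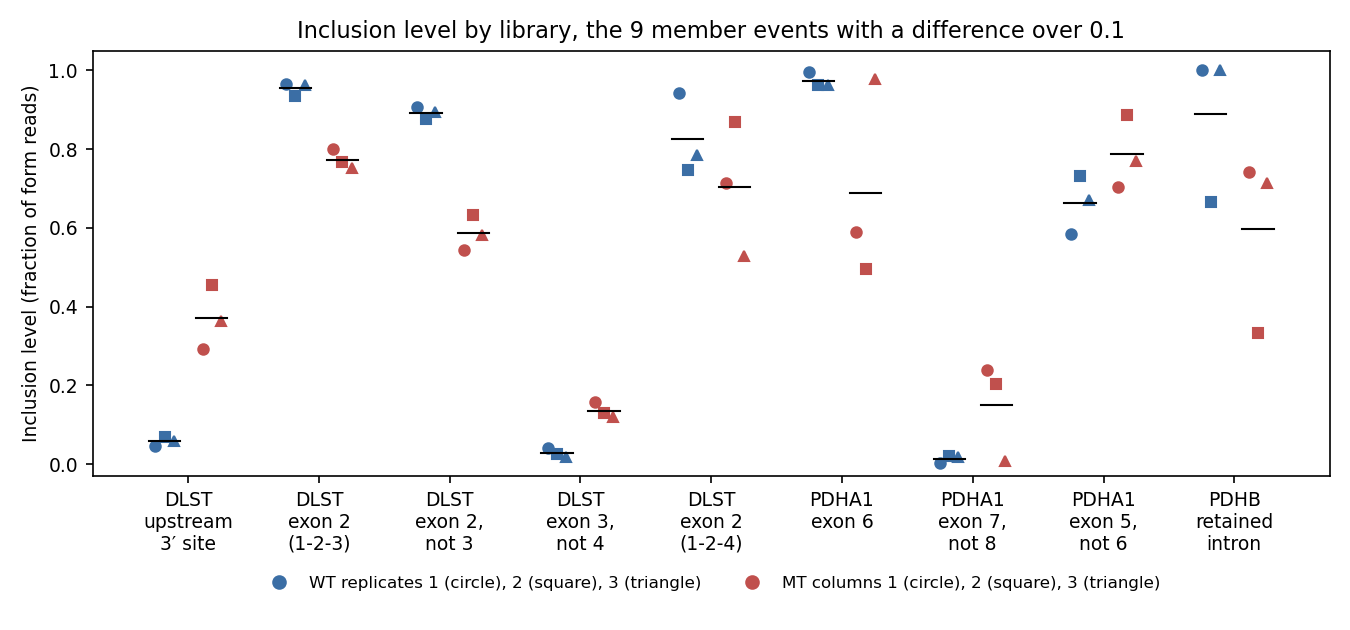
Inclusion level (vertical axis, fraction of form reads) of the 9 events of the 8 genes whose mean differed by more than 0.1 between the genotypes, with WT replicates in blue, MT columns in red and group means as black lines. The upstream DLST site sits between 0.047 and 0.069 in WT and between 0.293 and 0.455 in MT, whereas PDHA1 exon 6 stood at 0.591 and 0.496 in MT columns 1 and 2 and at 0.977 in MT column 3.

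A second region of DLST differed between the genotypes, at its 5′ end. Exon 2 of the canonical transcript (34 bases, chr14:74882591-74882624, coding) was joined between exons 1 and 3 at levels of 0.966, 0.935 and 0.962 in WT. In the MT columns the levels were 0.800, 0.767 and 0.751. The groups did not overlap, with a WT mean of 0.954 ± 0.0169 (SD, n = 3) against an MT mean of 0.773 ± 0.0250 (SD, n = 3), a difference of -0.182. Reads that joined exon 1 straight to exon 3 numbered 5, 5 and 3 in WT and 18, 13 and 19 in MT, beside 194, 97 and 103 reads with exon 2 in WT and 98, 58 and 78 in MT. The exon is shown in capitals with 20 intron bases on each side (chr14:74882571-74882644, plus strand), because its length also breaks the reading frame.
DLST exon 2: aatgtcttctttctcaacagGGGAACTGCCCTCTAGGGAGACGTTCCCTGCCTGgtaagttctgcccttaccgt

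Without these 34 bases the canonical reading frame meets a TGA stop after 110 codons, with 860 bases left before the last junction. Of 16 annotated DLST transcripts 9 hold the exon as drawn.

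Further DLST events that differed by more than 0.1 involve the same junctions and are no separate evidence. In a mutually exclusive pair of exons 2 and 3 before exon 5, exon 2 had levels of 0.908, 0.876 and 0.894 in WT, compared with 0.544, 0.634 and 0.583 in MT, a difference of -0.306 on 31.1 mean reads. In a pair of exons 3 and 4 between exons 1 and 5, exon 3 had levels of 0.041, 0.027 and 0.019 in WT, compared with 0.157, 0.130 and 0.119 in MT. Both pairs count the reads of exon 3 in this setting, 5, 3 and 2 in WT and 15, 11 and 16 in MT. A second event at exon 2, joined to exon 4, had levels of 0.943, 0.746 and 0.786 in WT, compared with 0.714, 0.869 and 0.530 in MT, so the groups overlapped there.

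Most DLST events differed little between the genotypes. Of its 23 events, 22 varied between libraries and 13 of those differed by less than 0.05. The event with the most reads, exon 6 as a cassette (343.0 mean reads), stood at 0.972, 0.989 and 0.991 in WT and 0.943, 0.989 and 0.967 in MT. The remaining alternative 3′ splice sites of DLST, 2 and 12 bases apart, differed by -0.021 and 0.028. An alternative 5′ splice site and a cassette event of the 53-base exon 4 did not overlap between the groups but moved by only 0.012 and -0.016. Exons downstream of exon 6 were included at 0.99 or more in every library for the 98-base exon 10 and at 1.000 for the 74-base exon 12.

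DLST junction reads, as far as they could be read, overlapped between the genotypes. They were summed over 17 of 23 listed DLST events, where a read can count in several events. In the events left out the counts of MT column 3 could not be read, and the best-covered DLST event (343.0 mean reads) is among them. The sums came to 432, 321 and 321 per 1000000 listed junction reads in WT and 334, 261 and 319 in MT, a ratio of 0.852. For OGDH, DLAT, PDHX, PDHA1, PDHB and DBT the ratio of MT to WT ranged from 0.729 (PDHX) to 0.976 (DBT), and WT and MT overlapped in all 7 genes. These sums hold 3 of 12 listed events for PDHA1, 3 of 7 for PDHB and 4 of 12 for DLAT. They hold 4 of 6 for PDHX, 15 of 19 for OGDH and 8 of 8 for DBT. DLD had no event whose count lists could be read in full. Among 7138 genes with at least 600 such reads the median ratio was 1.02, with 80% of genes between 0.812 and 1.28, and 7.36% of genes did not overlap. No test was made of these sums.

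Across all 8 genes, 17 of the 89 events had the same level in every library and 72 could be tested. Events were called by limma on arcsine-transformed square roots of the levels, at a Benjamini-Hochberg adjusted p under 0.05 over 83581 events and a difference above 0.1. Of the 72 events 1 was called, the upstream DLST site, and of all events tested 26 (0.0311%) were called. Since DLST was selected on this contrast, nothing is read from that count. The call was lost without MT column 1 or MT column 2, where the difference was 0.352 and 0.271, and also with a logit transform, with no transform and with no variance trend. Levels of WT and MT did not overlap and differed by more than 0.1 in 4 of the 72 events, all in DLST and described above, against 1.73% of all events tested. The median absolute difference was 0.0147 over the 72 events and 0.0137 over all 83581. Just under the read minimum lay a PDHA1 event with 6.83 mean reads, and just above it a DLST event with 10.3 and the PDHB event with 14.8.

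**Figure D2:**
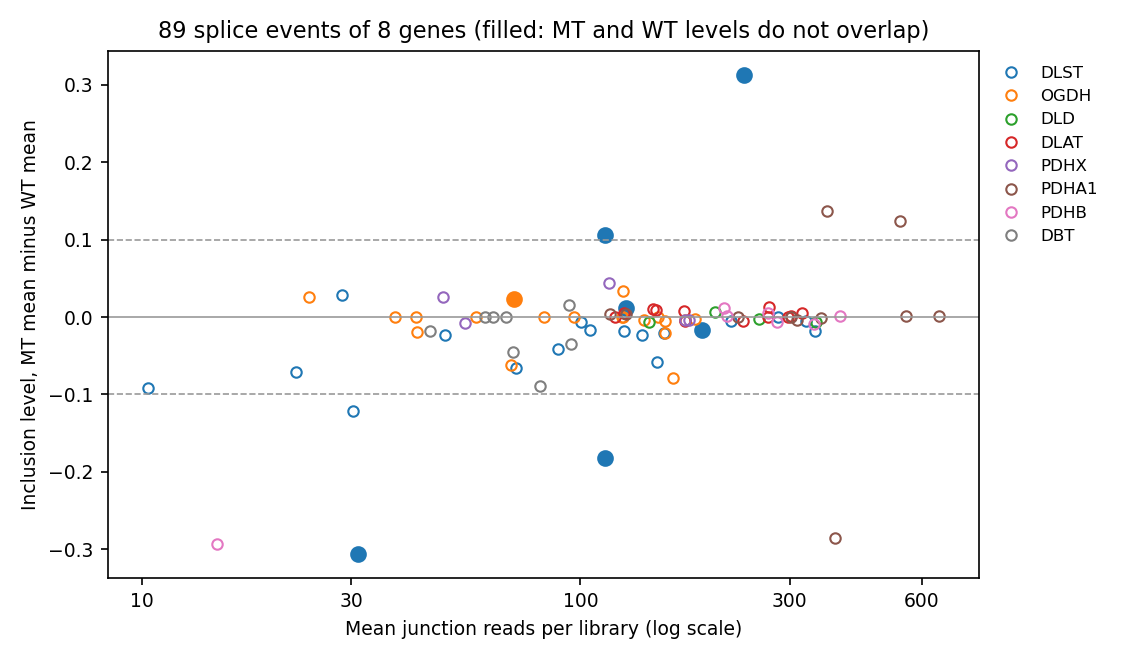
Difference in mean inclusion level, MT minus WT (vertical axis), against mean junction reads per library (horizontal axis, log scale) for the 89 events, coloured by gene, with filled points where WT and MT levels do not overlap and dashed lines at differences of 0.1. The 4 filled points beyond the dashed lines belong to DLST, and most other points lie close to 0 at any read depth.

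The 7 genes chosen by function gave 66 events, of which 50 could be tested. By limma 0 of the 50 were called, beside 0.0311% of all events. An unadjusted p under 0.05 was found in 6 of the 50, a larger share than the 3740 of 83581 in all. Of these 6, 3 were PDHA1 events, and 2 of those count the same skipping junction. Their median absolute difference was 0.0073, and 43 of the 50 differed by less than 0.05. Levels did not overlap and differed by more than 0.1 in 0 of the 50, beside 1.73% of all events tested. With no minimum difference 1 of the 50 did not overlap, and the share over all events was not counted for that. It was in OGDH, where a 45-base exon (chr7:44656318-44656362) was absent from all WT libraries. Its levels were 0.031, 0.011 and 0.026 in MT, on 2, 1 and 4 reads (adjusted p = 0.856, limma).

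PDHA1, which encodes the catalytic alpha subunit of pyruvate dehydrogenase E1, showed the largest difference among events of these 7 genes with at least 100 reads, and it was split between the MT columns. Exon 6 (93 bases, chrX:19354491-19354583) had levels of 0.995, 0.963 and 0.962 in WT, 0.591 and 0.496 in MT columns 1 and 2, and 0.977 in MT column 3. Reads that skipped the exon numbered 1, 9 and 7 in WT, against 371, 464 and 354 with it. In MT columns 1 and 2 they numbered 64 and 122, against 185 and 240 with the exon. The third MT column thus lay within the WT range, and the mean was 0.973 ± 0.0188 in WT and 0.688 ± 0.255 in MT (SD, n = 3 each), which did not pass the test (adjusted p = 0.325, limma). Without MT column 3 the difference was -0.430 and the event was called (adjusted p = 0.000482). The exon is shown in capitals with 20 intron bases on each side (chrX:19354471-19354603, plus strand).
PDHA1 exon 6: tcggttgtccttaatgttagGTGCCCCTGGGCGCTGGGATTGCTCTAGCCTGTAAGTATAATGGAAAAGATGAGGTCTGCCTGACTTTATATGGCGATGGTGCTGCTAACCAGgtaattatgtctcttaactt

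The 93 bases are 31 codons, so the reading frame goes on after skipping and keeps 359 of 390 codons before the same TAA stop. Of the 13 annotated PDHA1 transcripts, 1 protein-coding transcript has the junction of the event that skips the exon. A pair of exons 7 and 8 counts the same skipping junction and had levels for exon 7 of 0.004, 0.020 and 0.018 in WT, compared with 0.240, 0.205 and 0.009 in MT (adjusted p = 0.481 by limma, and 0.00562 without MT column 3). A pair of exons 5 and 6 had levels for exon 5 of 0.585, 0.732 and 0.672 in WT, compared with 0.704, 0.887 and 0.769 in MT (adjusted p = 0.673). The last pair overlapped between the groups and had its highest value in MT column 2.

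Such a split was then counted over all events, by a rule that follows the shape of PDHA1 exon 6. That exon meets the rule by construction, so the counts are a description and no test of it. Of 35992 events with at least 100 mean reads, 2 had MT columns 1 and 2 more than 0.2 outside the WT range on the same side and MT column 3 within it, PDHA1 exon 6 and an exon of NIN. With MT column 1 or MT column 2 as the column within the WT range there were 0 such events. Over all 83581 events with at least 10 reads the counts were 31 for MT column 1, 17 for MT column 2 and 31 for MT column 3, so MT column 3 did not stand out there. NIN, a centrosome gene outside the members, had levels of 0.526, 0.677 and 0.534 in WT, compared with 0.2, 0.277 and 0.542 in MT, and was named after its values were seen. Which MT sample each column holds is not given in the sources used here.

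The other 6 tested PDHA1 events differed by less than 0.05. Its 21-base upstream 3′ site, printed above beside that of DLST, had levels of 0.014, 0.025 and 0.039 in WT, compared with 0.021, 0.030 and 0.017 in MT. The event with the most reads of all 8 genes, the 72-base exon 8 of PDHA1 (657.8 mean reads), was included at 0.998 or more in all 6 libraries. Reads of DLST and PDHA1 can also match intronless copies in the genome (DLSTP1, PDHA2 and PDHA1P1 are annotated), and how such reads were counted is not given in the sources used here.

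PDHB, the beta subunit of the same E1, had 1 event with a difference above 0.1. An intron of 186 bases (chr3:58429942-58430127, minus strand) was retained at 1, 0.667 and 1 in WT and 0.742, 0.333 and 0.714 in MT, on 14.8 mean reads (adjusted p = 0.856, limma). The groups overlapped, and a read or 2 moves these levels: the spliced form had 0, 2 and 0 reads in WT and 4, 4 and 2 in MT. The upstream site, 142 bases before the usual one, was used at 0.011 to 0.034 in all libraries, in an event with 212 mean reads. The whole intron up to the usual site, 328 bases, had 215.6 mean reads. It was retained at 0.050, 0.009 and 0.026 in WT and 0.035, 0.018 and 0.034 in MT. The PDHB event with the most reads, a 54-base intron within an exon (390.3 mean reads), was retained at 0.988 to 1.000.

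Of the E2 and E3 subunits other than DLST, DLAT and DLD differed least. In DLAT all 9 tested events differed by at most 0.0133 between group means, and in DLD, the shared E3, all 4 by at most 0.007. The largest difference in DLAT was for a pair of exons in which the 154-base exon had 0.523, 0.550 and 0.556 in WT and 0.491, 0.599 and 0.579 in MT. The DLD alternative 3′ site, 95 bases from the usual site, was used at 0.011 to 0.033 in all libraries, and its best-covered event, a 69-base exon, was included at 0.983 or more. PDHX, which anchors E3, had 5 events, the largest difference being 0.044 for a pair of exons with 0.679, 0.778 and 0.859 in WT and 0.732, 0.822 and 0.895 in MT. In DBT a 182-base exon (chr1:100230733-100230914) had 0.900, 1.000 and 0.840 in WT and 0.636, 0.864 and 0.973 in MT (adjusted p = 0.856, limma). Its best-covered exon, of 217 bases, had 0.970, 1.000 and 0.980 in WT and 0.917, 0.976 and 0.952 in MT. A 192-base DBT exon had 1.000, 1.000 and 0.970 in WT and 0.895, 0.964 and 0.975 in MT (unadjusted p = 0.0331, adjusted p = 0.856, limma). The median absolute difference over the 5 tested DBT events was 0.035, against 0.0137 over all 83581 events. OGDH, the partner of DLST, had its largest difference in a pair of exons, -0.079, where WT replicate 3 stood alone at 0.390 and the other 5 libraries lay between 0.153 and 0.211. Its best-covered exon, of 129 bases, was included at 0.992 or more. In these 5 genes no event with a level in all libraries differed by as much as 0.1.

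A wider list of 40 genes of lipoate synthesis, the dehydrogenase kinases and phosphatases, pyruvate transport and the citric acid cycle was read in the same fit. Events with at least 10 reads were listed for 35 of them, and 300 could be tested. By limma 0 were called, beside 0.0311% of all events, so nothing is read from the 0. An unadjusted p under 0.05 was found in 18 of the 300, against 3740 of 83581 in all. Levels did not overlap and differed by more than 0.1 in 3 of the 300 (1%), against 1.73% of all events. They were a 255-base exon of IDH3A, a subunit of isocitrate dehydrogenase, with 1, 0.867 and 1 in WT and 0.467, 0.750 and 0.667 in MT; an 83-base exon of CS, citrate synthase, with 0.900, 0.613 and 0.638 in WT and 0.346, 0.514 and 0.552 in MT; and a 118-base exon of PDPR, the regulatory subunit of pyruvate dehydrogenase phosphatase, with 0.733, 0.750 and 0.846 in WT and 0.895, 0.875 and 1 in MT. These rest on 11.8, 10.2 and 15.8 mean reads, and their lowest adjusted p was 0.693 (limma).

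The DLST site was then set beside alternative 3′ splice sites of other genes. Of 1888 such events with at least 100 reads and a level that varied, 346 had sites 10 to 30 bases apart. In 13 of these 346 (3.76%) the upstream site was higher in MT with no overlap and a difference above 0.1, DLST among them, and in 0 it was lower. At closer spacing 1 of 333 was higher and 1 lower, and at wider spacing 3 of 1209 were higher and 6 lower. The DLST difference ranked 1 among the 346, as it was chosen to. The 5 events of other genes nearest to DLST in level over the 6 libraries, among 1999 with at least 100 reads, were those of HLTF, THOC1, ARL6IP4, STAU1 and LARP4. Their mean absolute distance from DLST was 0.076 (HLTF), 0.081 (THOC1), 0.0935 (ARL6IP4), 0.095 (STAU1) and 0.0957 (LARP4), and their sites lay 12, 21, 24, 18 and 18 bases apart.

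HLTF, a DNA helicase-like factor, came closest with 0.127, 0.142 and 0.150 in WT and 0.401, 0.397 and 0.319 in MT. THOC1, of the THO complex that packages new RNA for export, had 0.049, 0.142 and 0.172 in WT and 0.282, 0.283 and 0.250 in MT. The upstream site of STAU1, which binds double-stranded RNA, overlapped between the groups, and none of the 5 events was called. HLTF, THOC1 and STAU1 were themselves picked by the study, in part on these libraries.

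**Figure D3:**
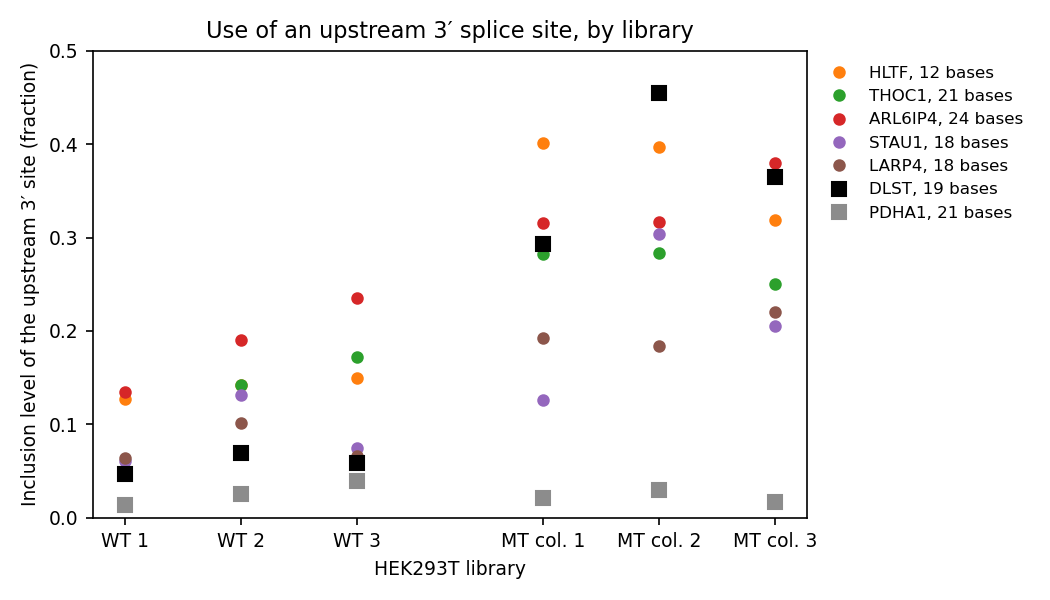
Inclusion level of the upstream 3′ splice site (vertical axis, fraction) in each of the 6 HEK293T libraries, for DLST (black squares), the PDHA1 site (grey squares) and the 5 events most like DLST, with the distance between the sites in bases. DLST rises from below 0.07 in WT to at least 0.293 in MT, and PDHA1 stays under 0.04 in all libraries.

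DRIP-seq gave another readout of the same genes, in Nalm-6 cells. Peaks are counted over each gene body and 3 kb upstream, per library. DLST had 0 peaks in both untreated WT libraries and 3 in each untreated MT library, at matching positions. In MT replicate 1 they lay at chr14:74879689-74879972, chr14:74880469-74881215 and chr14:74897053-74897622, with enrichments over local background of 5.53, 3.49 and 3.10 fold. In MT replicate 2 the enrichments were 7.54, 4.06 and 3.55 fold. The first and second lie upstream of the gene, and the third lies in the gene 7157 bases beyond the alternative splice site. None of the 8 libraries had a peak over that site, over DLST exon 2 or over PDHA1 exon 6.

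The MT lists are longer throughout. Counted here and below on the autosomes and on chromosomes X and Y only, untreated WT libraries held 123720 and 131096 peaks, and untreated MT libraries 254170 and 296533. With RNH1 treatment the WT libraries held 34952 and 77550, the MT libraries 201804 and 198837. The 8 genes together had 21 peaks in each WT library, against 35 and 46 in MT. Per 100000 peaks of the library, that is 17.0 and 16.0 in WT, against 13.8 and 15.5 in MT. After peaks sharing a base with a peak of the RNH1 library of the same genotype and number were removed, 18 and 16 were left in WT, against 17 and 24 in MT. The genotypes overlapped in that count, with a difference in means of 3.5 peaks. Per 100000 peaks left in the library it was 17.8 and 18.6 in WT, against 13.6 and 15.8 in MT, where the genotypes did not overlap and MT was the lower. With 2 libraries a group, no test was made, since the smallest two-sided exact permutation p is 0.333.

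Gene by gene, DLST kept 3 peaks in MT replicate 1 and 1 in MT replicate 2 after removal. In MT replicate 2 the RNH1-treated library had 2 peaks over DLST, and the other 3 RNH1-treated libraries had 0. PDHA1 had 0 peaks in all 8 libraries. OGDH had 2 and 3 peaks in untreated WT, of which 2 and 2 were left, and 7 and 9 in untreated MT, of which 4 and 6 were left. PDHX and DBT held the most, PDHX 8 and 7 in WT against 9 and 14 in MT, and DBT 6 in each WT library against 11 in each MT library. The strongest peak over any of the 8 genes in untreated cells, 14.1 fold in PDHX in MT replicate 2, lay under RNH1 peaks, since the highest PDHX peak left after removal was 5.98 fold. DLD likewise had 11.3 and 12.4 fold peaks in untreated MT and 16.0 and 16.3 fold peaks in RNH1-treated MT.

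**Figure D4:**
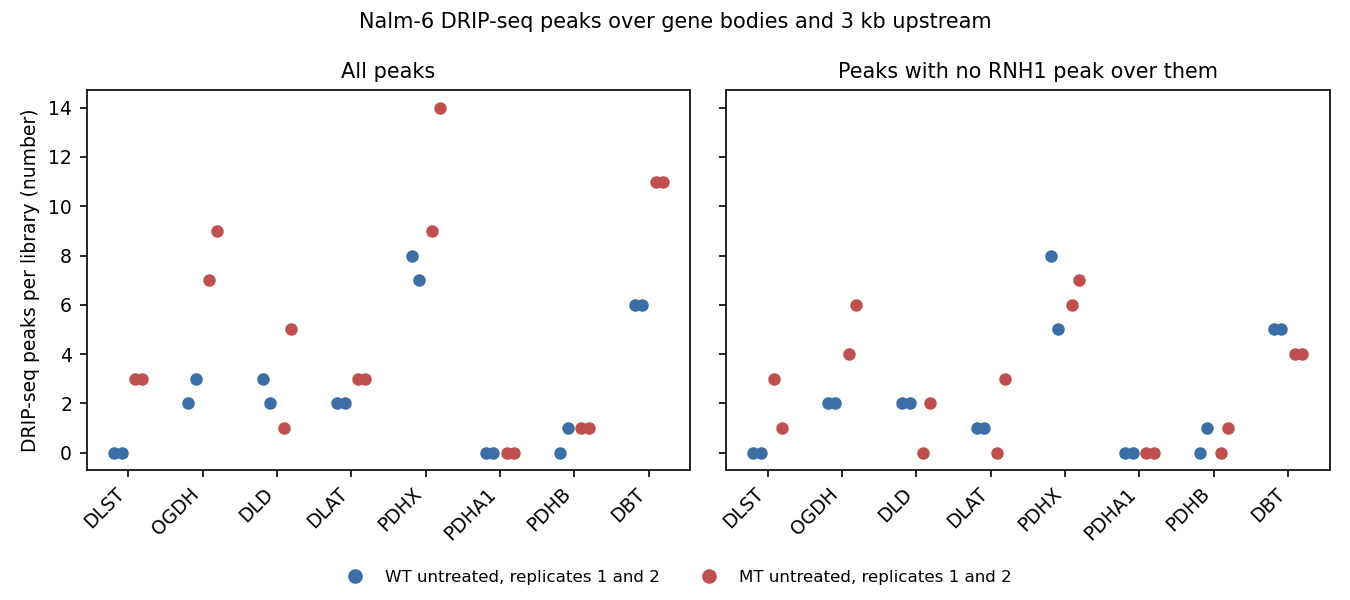
Number of DRIP-seq peaks per untreated Nalm-6 library over each of the 8 genes and 3 kb upstream (vertical axis), for all peaks (left) and for peaks with no RNH1 peak over them (right), WT in blue and MT in red, 2 libraries each. DLST has 0 and 0 in WT against 3 and 3 in MT on the left, and 3 and 1 in MT on the right.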

How the data were processed

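Inclusion levels are fractions with 3 decimals, deposited by the authors in 1 table of HEK293T splice events; the paper's Methods name a stranded kit and the rMATS model, and the submitters' notes STAR and StringTie, with versions not given in the sources used here. The authors' mean junction reads per group (a signal column) include 3 listed MT values per event that have no column. The levels of these 3 were not used. Their reads do enter the mean reads given here, and so the read minimums and the variance trend. The authors' p-values and level differences in the table were not used. Methods of the DRIP-seq give BWA, GRCh38 and MACS2 narrow peaks per library; the deposited lists give fold enrichment (a ratio), −log10 p and q, and a score, and held only q values under 0.01. They give no read totals.

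Levels of events complete in 6 libraries, with at least 10 mean reads and some variation, were compared by limma 3.58.1 (R 4.3.3) with a variance trend on log reads. Counts were read from the table's lists where they gave back the level within 0.0011. The comparison was also run on simulated data, with changes equal in all MT libraries, so that run says nothing about changes split between MT columns. Its outcome is not given here and nothing rests on it. Positions are 1-based, GRCh38, annotated with GENCODE. Members, lists and event rules were chosen with earlier results of these data known. For each gene, the event with most reads, the event with the largest difference, and all events called or not overlapping by over 0.1 were named.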

Additional observations from a re-analysis of the deposited data

How the results depend on the processing

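No paired analysis was possible because the MT columns are not tied to replicate numbers, and the DRIP-seq comparison comes from no test. The count of called events of the 8 genes was 1; it was 0 with a logit transform, 0 with no transform and 0 with no variance trend, settings in which 0 of all 83581 events were called, with 2989, 3405 and 3200 unadjusted p under 0.05. It ranged from 0 to 3 as libraries were left out: the DLST site, which was chosen on this contrast, was not called without MT column 1 or MT column 2, and PDHA1 exon 6 and its exon 7 and 8 pair were called without MT column 3, so that the 7 other genes had 0 to 2 calls. The wider list had 0 calls in every setting run. The DLST difference ranged from 0.271 to 0.352 with a library left out and was 0.344 without length normalisation; a mean over events with the same pair of sites gives nothing further, since 1 such event is listed. The DRIP peak difference of 3.5 was 19.5 with no removal, -2.5 at a fold enrichment of at least 4, 5 when removal needed 50% cover, and 0 to 7 with a library left out. Of 239 values of 22 named events under these settings, 232 kept their side of the call rule and moved by less than the spread between libraries. The difference in level does not depend on the transform, the variance trend or the read minimum, so it could not move there. In settings where no event of the table was called, an uncalled event could not change side. The count of 232 is therefore no measure of stability. Peak lists without read totals do not let depth be separated from genotype.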
